A study of Mus musculus with 16 samples.

Results

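The Polycomb group was followed at the RNA level in immortalised mouse embryonic fibroblasts (MEFs), using 36 genes listed by symbol: 11 of Polycomb repressive complex 2 (PRC2), 21 of Polycomb repressive complex 1 (PRC1) and 4 of the Polycomb repressive deubiquitinase (PR-DUB). All 36 of 36 symbols were found among the 54453 genes of the expression table. The lines came from 2 sibling C57BL/6J embryos of embryonic day 13.5. They carry no engineered allele, received no treatment, and were immortalised by serial passage through crisis. The parental lines are MEF-1 and MEF-2. From each, 7 sorted single cells were grown into clonal lines, so that 16 lines were profiled, each with 1 total RNA library. Per the study, MEF-1 came from a male and MEF-2 from a female embryo, and some chromosomes are not diploid. Embryo, sex, karyotype and history of immortalisation therefore cannot be told apart in a comparison of the sets.

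Polycomb proteins keep genes silent through cell division. PRC2 methylates histone H3 to give H3K27me3, through Ezh1 or Ezh2, and needs Eed and Suz12 for its activity. PRC1 ubiquitinates histone H2A through Ring1 or Rnf2. Canonical PRC1 is brought to H3K27me3 by a Cbx protein, whereas variant PRC1 contains Rybp or Yaf2. PR-DUB, in which Bap1 is the enzyme and an Asxl protein its partner, removes the PRC1 mark. In fibroblasts the best known target is the Cdkn2a/Cdkn2b locus, which encodes inhibitors of the cell cycle that limit the lifespan of cultured cells.

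Values are regularised log (rlog) values on the log2 scale, normalised to library size and shrunken towards the average of each gene, so that differences of weakly expressed genes are understated. Sequencing depth is unknown. The 14 clonal lines were compared as 7 MEF-2 against 7 MEF-1 lines by limma, a linear model fitted over all 15285 protein-coding genes with an average above 0, with Benjamini-Hochberg adjusted p-values. A gene was called at an adjusted p under 0.05. Differences are MEF-2 minus MEF-1, and errors are standard errors (SE) unless given as SD. Nothing in the labels places the clonal lines of a set in separate embryos, so p-values measure the spread between clonal lines of 1 embryo each.

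The sequences around the start sites of 4 genes are given: the methyltransferases Ezh2 and Ezh1, which differed in opposite directions, their partner Suz12, and Cbx7, which had the largest difference in absolute size. Cbx2 and Asxl3, which also differed strongly, have no entry in the promoter table used. Each run holds 250 bases before to 50 after a RefSeq start site (GRCm38.p6), written 5′ to 3′ in the direction of the gene. The regions are chr6:47594981-47595280 (minus strand) for Ezh2, chr11:101226414-101226713 (minus) for Ezh1, chr11:79992856-79993155 (plus) for Suz12 and chr15:79932597-79932896 (minus) for Cbx7. Capitals mark 3 kinds of letters searched on both strands: E2F-type letters (TTCCCGC, TTTGGCGC or TTTCGCGC), the cell cycle homology region (CHR, TTTGAA) and the CCAAT box.
Ezh2: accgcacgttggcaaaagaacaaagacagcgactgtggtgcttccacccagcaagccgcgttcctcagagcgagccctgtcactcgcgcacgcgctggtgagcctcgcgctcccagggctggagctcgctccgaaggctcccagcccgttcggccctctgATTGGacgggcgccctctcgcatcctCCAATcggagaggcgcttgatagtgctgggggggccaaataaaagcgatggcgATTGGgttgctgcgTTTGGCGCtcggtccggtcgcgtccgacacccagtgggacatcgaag
Ezh1: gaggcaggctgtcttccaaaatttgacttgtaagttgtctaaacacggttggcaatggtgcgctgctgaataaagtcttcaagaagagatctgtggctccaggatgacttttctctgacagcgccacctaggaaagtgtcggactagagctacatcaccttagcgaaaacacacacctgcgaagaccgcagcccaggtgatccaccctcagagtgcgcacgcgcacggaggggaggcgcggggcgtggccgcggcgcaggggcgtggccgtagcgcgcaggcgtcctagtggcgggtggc
Suz12: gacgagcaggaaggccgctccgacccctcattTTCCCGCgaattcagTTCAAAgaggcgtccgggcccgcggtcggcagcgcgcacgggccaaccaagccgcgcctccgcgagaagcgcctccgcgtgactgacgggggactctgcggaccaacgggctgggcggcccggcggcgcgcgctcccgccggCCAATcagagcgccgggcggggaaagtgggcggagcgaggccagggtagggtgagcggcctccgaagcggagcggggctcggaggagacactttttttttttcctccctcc
Cbx7: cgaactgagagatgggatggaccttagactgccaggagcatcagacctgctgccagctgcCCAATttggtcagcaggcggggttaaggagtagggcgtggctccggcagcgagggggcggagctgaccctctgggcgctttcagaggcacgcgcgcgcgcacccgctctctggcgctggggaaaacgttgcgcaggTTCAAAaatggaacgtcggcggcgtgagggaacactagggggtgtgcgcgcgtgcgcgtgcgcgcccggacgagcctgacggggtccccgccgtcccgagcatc

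The Ezh2 promoter held CCAAT letters starting at positions -90, -64 and -11 and E2F-type letters 3 bases past the start. That of Suz12 held E2F-type letters at -218, CHR letters at -203 and a CCAAT box at -61. That of Cbx7 held a CCAAT box at -190 and CHR letters at -54, while that of Ezh1 held none of the 3. Over 32851 mouse promoters of the same length, 5.3% held E2F-type letters, 17.9% CHR letters and 37.4% a CCAAT box. The 31 Polycomb genes in the table have 44 promoters, of which 6, 9 and 16 held these letters. These matches describe letters and not binding, and the letters were picked after the sequences had been seen.

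Several properties of the lines moved with the sets and touch the results below. Fibroblast genes were high in all 16 lines, with Col1a1 from 20.31 to 21.41 and Vim from 17.79 to 18.46, but the fibroblast surface marker Thy1 ranged from 2.72 to 10.22. Of 12 markers of other cell types, Cdh1 reached 8.41 and Nanog 6.18, whereas the others stayed at or below 5.58. All 17 listed proliferation genes were called, 16 higher and 1, E2f1, lower in MEF-2, beside 56.1% of all genes fitted. Their mean, relative to the 14 clonal lines, was -0.78 to 0.34 in MEF-1 and 0.07 to 0.60 in MEF-2 clonal lines, with MEF-1 line 5 alone accounting for the overlap. The median of the genes on chromosome 12 was shifted by -0.34 to -0.28 in MEF-1 clonal lines and by 0.29 to 0.33 in MEF-2, relative to the average of the clonal lines. Chromosome 19 was shifted the other way, by 0.14 to 0.21 in MEF-1 and by -0.24 to -0.17 in MEF-2. Chromosome 18 was low in MEF-1 lines 1, 4 and 5 only, at -0.50 to -0.47.

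Across the 36 genes, 28 were called between the sets, 16 higher and 12 lower in MEF-2, beside 56.1% of all genes fitted (27.5% higher and 28.6% lower). With a difference of at least 1.5-fold also required, 10 were called, beside 25.5% of all genes. Those 4 higher in MEF-2 (11.2% of all genes) were Ezh2, Cbx2, Asxl2 and Asxl3, and those 6 lower (14.3%) were Ezh1, Phf1, Cbx6, Cbx7, Phc3 and Scml2. The clonal lines of the sets did not overlap for 15 genes, beside 25.9% of all genes, 8 of them higher (12.3%) and 7 lower (13.6%) in MEF-2. The median difference of the 36 genes was 0.01 against -0.004 for all genes fitted, and the median absolute difference 0.32 against 0.30. The medians of the group lay close to those of all genes, and its share of calls of at least 1.5-fold, 10 of 36, lay near the background. As the libraries are of bulk RNA, a lower value may come from fewer cells that express a gene or from less RNA per cell, which cannot be told apart. When the chromosome shift of each line was subtracted, 24 were called, beside 56.8% of all genes.

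**Figure D1:**
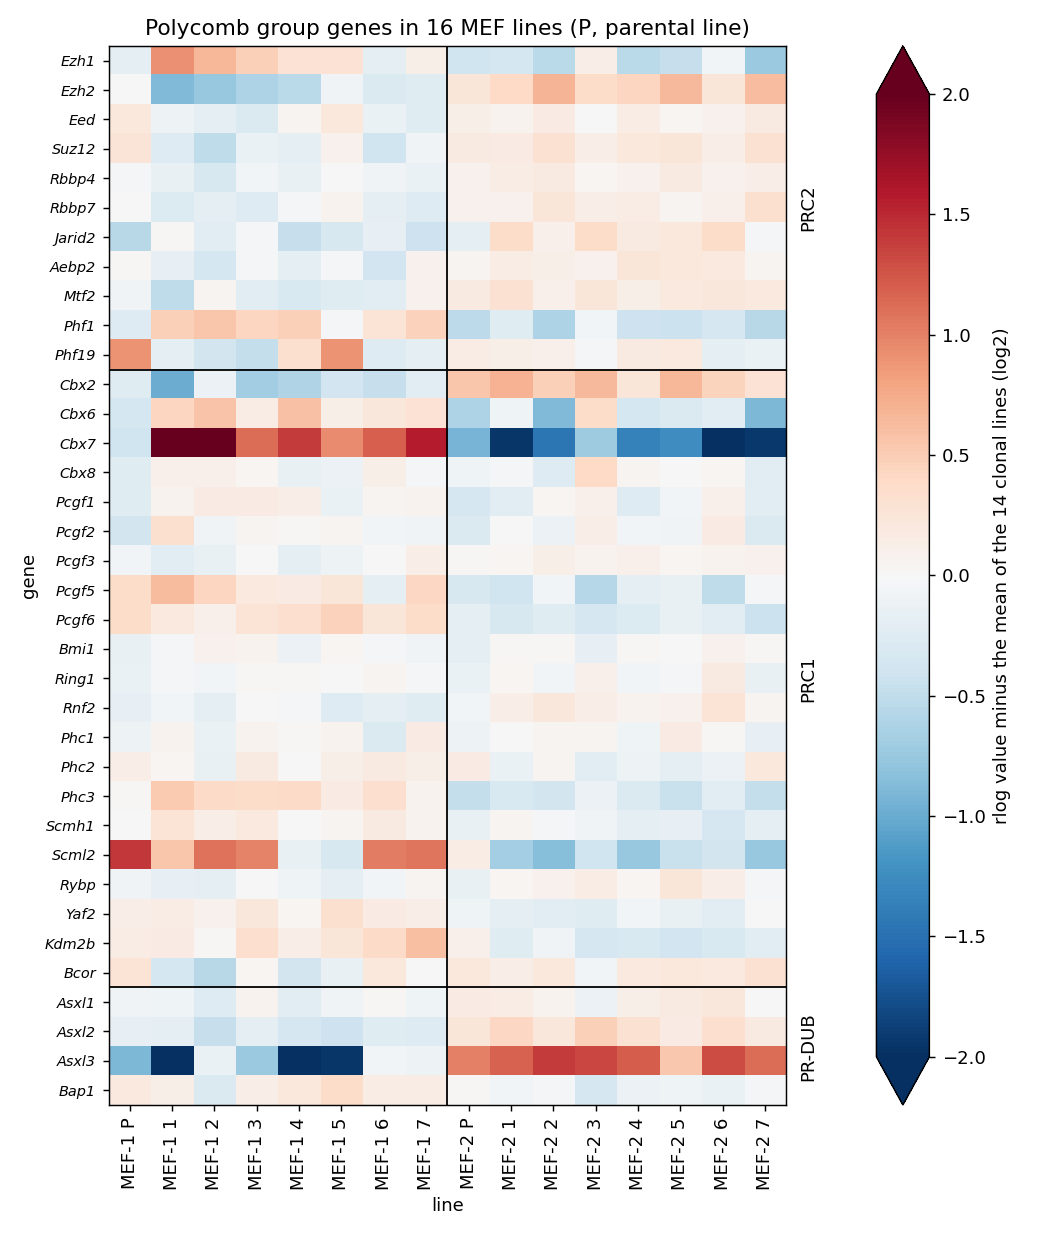
Rlog value of each of 36 Polycomb genes (rows, by complex) in each of 16 lines (columns, P for parental), minus the mean of the 14 clonal lines, on a log2 colour scale capped at 2 in either direction. Cbx7 is high in all 7 MEF-1 clonal lines but not in the MEF-1 parental line, and Asxl3 is lowest in MEF-1 lines 1, 4 and 5.

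Within PRC2, 8 of 11 genes were called higher and 2 lower in MEF-2 lines, beside 27.5% and 28.6% of all genes fitted. The median difference was 0.30, against -0.004 for all genes fitted. The catalytic subunits moved in opposite directions. Ezh2, the main methyltransferase of dividing cells, lay between 10.89 and 11.71 in MEF-1 clonal lines (median 11.24) and between 12.02 and 12.45 in MEF-2 (median 12.21). The sets did not overlap, with a gap of 0.32 between them. The difference was 0.97 ± 0.12, or 1.96-fold, with an adjusted p of 7.65e-06 (limma).

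Ezh1, the methyltransferase typical of non-dividing cells, lay between 11.08 and 12.19 in MEF-1 (median 11.57) and between 10.54 and 11.42 in MEF-2 (median 10.82). It was lower in MEF-2 (-0.73 ± 0.16, adjusted p = 0.00167, limma), although MEF-1 lines 6 and 7 fell inside the range of MEF-2 lines. Within a line, Ezh2 minus Ezh1 was -0.35 ± 0.62 (SD, n = 7) in MEF-1 and 1.35 ± 0.44 (SD, n = 7) in MEF-2, and the ranges of -1.29 to 0.41 and 0.73 to 1.85 did not overlap. Per kilobase of transcript, Ezh2 was above Ezh1 on the average of the 14 lines with each of 3 measures of transcript length. In MEF-1 clonal lines alone, the order turned when length was the union of exons (8.55 for Ezh2, 8.75 for Ezh1).

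Suz12, the scaffold of PRC2, was between 12.20 and 12.79 in MEF-1 (median 12.53) and between 12.84 and 13.02 in MEF-2 (median 12.92). The difference of 0.42 ± 0.08 (adjusted p = 0.000308, limma) was accompanied by a smaller spread in MEF-2, with an SD of 0.07 against 0.20. Eed, which reads H3K27me3, differed by 0.20 ± 0.07 (adjusted p = 0.0294, limma), from 10.85 to 11.36 in MEF-1 (median 11.02) and from 11.14 to 11.32 in MEF-2 (median 11.24). This call was the weakest of the core. It was lost on subtraction of the chromosome shift (0.08, adjusted p = 0.225, limma), on adding the parental lines (0.16, adjusted p = 0.0683), and on leaving out MEF-1 line 2, 3 or 7 or MEF-2 line 2, 4 or 7 (0.17 to 0.19, adjusted p 0.0531 to 0.0641).

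The accessory subunits divide into Polycomb-like proteins, which recruit the complex to CpG-rich DNA, and Jarid2 with Aebp2, which mark the other form of PRC2. The Polycomb-like genes did not move together. Phf1 was between 11.05 and 11.64 in MEF-1 (median 11.54) and between 10.46 and 11.02 in MEF-2 (median 10.66), lower in MEF-2 (-0.76 ± 0.10, adjusted p = 1.47e-05, limma). Its clonal lines did not overlap, but the gap was only 0.04. Mtf2 was higher in MEF-2 by 0.39 ± 0.08, also without overlap, with a gap of 0.01.

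Phf19 gave no call (0.07 ± 0.18, 95% confidence interval -0.31 to 0.45, adjusted p = 0.765, limma). It was instead the most uneven gene of PRC2 among MEF-1 clonal lines. MEF-1 line 5 stood at 10.32 and line 4 at 9.74, above the other 5 lines at 8.95 to 9.25, while MEF-2 lines were between 9.23 and 9.63. The MEF-1 parental line, at 10.33, matched line 5. Jarid2 and Aebp2 were higher in MEF-2 by 0.45 ± 0.09 and 0.30 ± 0.07. The histone-binding subunits Rbbp4 and Rbbp7, which PRC2 shares with other chromatin complexes, were higher by 0.25 ± 0.05 and 0.32 ± 0.06.

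**Figure D2:**
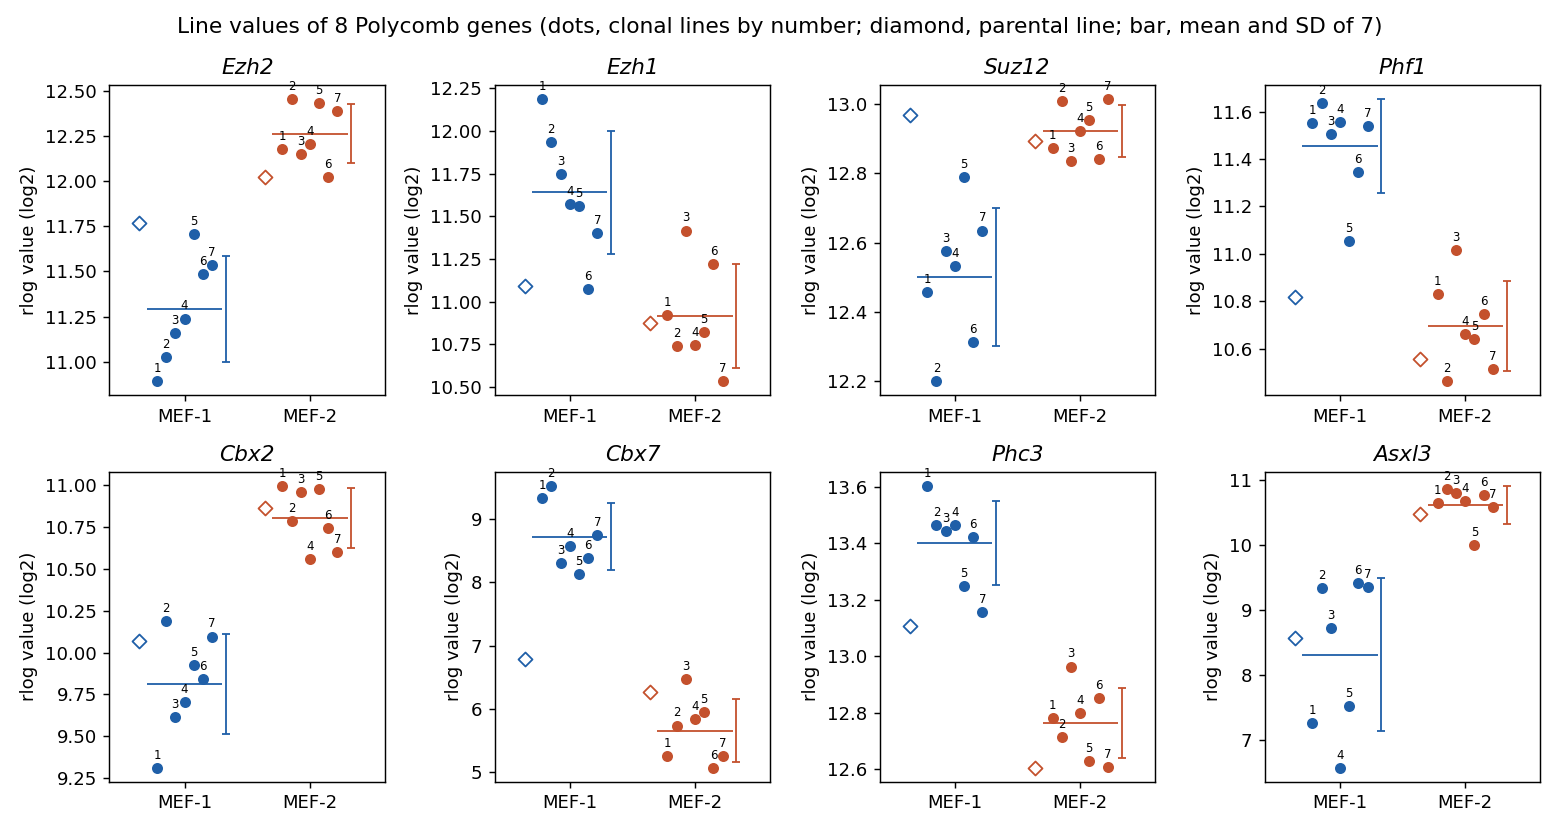
Rlog values (log2) of 8 Polycomb genes in MEF-1 (blue) and MEF-2 (orange), with numbered dots for the 7 clonal lines, a diamond for the parental line, and a bar and whiskers for the mean and SD of the clonal lines. The sets of dots do not overlap except for Ezh1, and the MEF-1 diamonds of Ezh2, Suz12, Phf1, Cbx7 and Phc3 lie outside their own clonal lines on the side of MEF-2.

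PRC1 was more divided, with 5 of 21 genes called higher, 9 lower and 7 not called. Over all genes fitted, 27.5% were called higher and 28.6% lower. The median difference of PRC1 was -0.14. The Cbx genes, whose chromodomains read H3K27me3, gave the extremes of PRC1. Cbx7, which represses Cdkn2a in fibroblasts and extends their lifespan, was between 8.13 and 9.53 in MEF-1 clonal lines (median 8.58) and between 5.07 and 6.48 in MEF-2 (median 5.73). The lowest MEF-1 line was 1.66 above the highest MEF-2 line. The difference of -3.07 ± 0.26, equal to 8.40-fold higher in MEF-1 (adjusted p = 1.70e-07, limma), was the largest of the 36 genes in absolute size. It was -3.03 with the chromosome shift subtracted.

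Cbx2 went the other way, at 9.31 to 10.19 in MEF-1 (median 9.84) and 10.56 to 11.00 in MEF-2 (median 10.78), without overlap. It was higher in MEF-2 by 0.99 ± 0.13, or 1.99-fold (adjusted p = 1.10e-05, limma). Cbx8 lies 5.0 kb from Cbx2 on chromosome 11 and did not give a call (-0.02, 95% confidence interval -0.21 to 0.18). Within a line, Cbx2 minus Cbx8 was -1.11 to -0.19 in MEF-1 and 0.18 to 0.72 in MEF-2.

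Cbx6, a neighbour of Cbx7 at 81.1 kb on chromosome 15, was between 12.94 and 13.41 in MEF-1 (median 13.12) and between 11.93 and 13.20 in MEF-2 (median 12.54). It was lower in MEF-2 (-0.67 ± 0.17, adjusted p = 0.00343, limma), with an overlap that came from MEF-2 line 3 at 13.20. The SD of Cbx6 in MEF-2 lines, 0.45, was larger than that of 95.8% of the 500 genes nearest to it in average. Cbx6 overlaps a second gene, Npcd, on the same strand, and Cbx7 overlaps Apobec3 on the opposite strand. Npcd had means of 4.79 in MEF-1 and 3.93 in MEF-2, and Apobec3 was higher in MEF-2 by 0.35 (adjusted p = 0.0335, limma). How reads of such pairs were assigned is not stated, and its part in these values was not tested.

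In the catalytic core of PRC1, Ring1 and Bmi1 were not called and Rnf2 was. Ring1 differed by 0.0007 ± 0.053 (95% confidence interval -0.11 to 0.11), and its partner Bmi1 by 0.01 ± 0.05 (interval -0.08 to 0.11). Rnf2, the more abundant ligase per kilobase on the average of the 14 lines, was higher in MEF-2 by 0.27 ± 0.05 (adjusted p = 0.000394, limma). Ring1 minus Rnf2 did not overlap between the sets, at -1.63 to -1.39 in MEF-1 and -1.93 to -1.70 in MEF-2. Of 10 such pairs of related genes examined, 4 did overlap: Rbbp4 and Rbbp7, Bmi1 and Pcgf2, Phc2 and Phc1, and Mtf2 and Phf19. How often other pairs of genes separate the sets was not computed.

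Among the other Pcgf genes, which set the type of PRC1, Pcgf1 and Pcgf2 were not called and Pcgf3 was higher by 0.15 ± 0.05. Pcgf5 was between 10.34 and 11.15 in MEF-1 (median 10.77) and between 9.95 and 10.49 in MEF-2 (median 10.33), lower (-0.54 ± 0.12, adjusted p = 0.00158, limma). Pcgf6 was lower (-0.56 ± 0.07) without overlap. Both lie on chromosome 19, and with its shift subtracted they differed by -0.18 (adjusted p = 0.212, limma) and -0.20 (adjusted p = 0.0186, limma).

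The polyhomeotic proteins Phc1, Phc2 and Phc3 join PRC1 units into larger assemblies. Phc3 was between 13.16 and 13.60 in MEF-1 (median 13.44) and between 12.61 and 12.96 in MEF-2 (median 12.78), lower without overlap (-0.64 ± 0.07, adjusted p = 3.20e-06, limma). Phc1 was not called (0.01 ± 0.07). Phc2 missed the threshold (-0.14 ± 0.07, adjusted p = 0.101, limma) and passed it without MEF-1 line 2 (-0.17, adjusted p = 0.036) or without MEF-2 line 7 (-0.18, adjusted p = 0.0188).

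Scml2, a Polycomb gene best known from the male germline, was the weakest expressed of the 36 in the clonal lines. It was between 4.57 and 5.97 in MEF-1 (median 5.88) and between 4.04 and 4.53 in MEF-2 (median 4.21), and lower in MEF-2 (-1.21 ± 0.23, adjusted p = 0.000466, limma). The gap between the sets was 0.04, since MEF-1 lines 4 and 5 stood at 4.73 and 4.57. Its relative Scmh1 was lower (-0.26 ± 0.06).

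Genes of variant PRC1 were also divided. Rybp was higher in MEF-2 by 0.18 ± 0.05 and its paralogue Yaf2 lower (-0.31 ± 0.06), so that Rybp minus Yaf2 did not overlap between the sets (1.98 to 2.42 in MEF-1, 2.48 to 2.90 in MEF-2). Kdm2b, which brings variant PRC1 to unmethylated CpG islands, was lower (-0.54 ± 0.08) without overlap. Bcor, its partner in the same complex, was higher by 0.34 ± 0.10 (adjusted p = 0.0117, limma). The call for Bcor was lost once the shift of the X chromosome was subtracted (0.23, adjusted p = 0.0523).

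**Figure D3:**
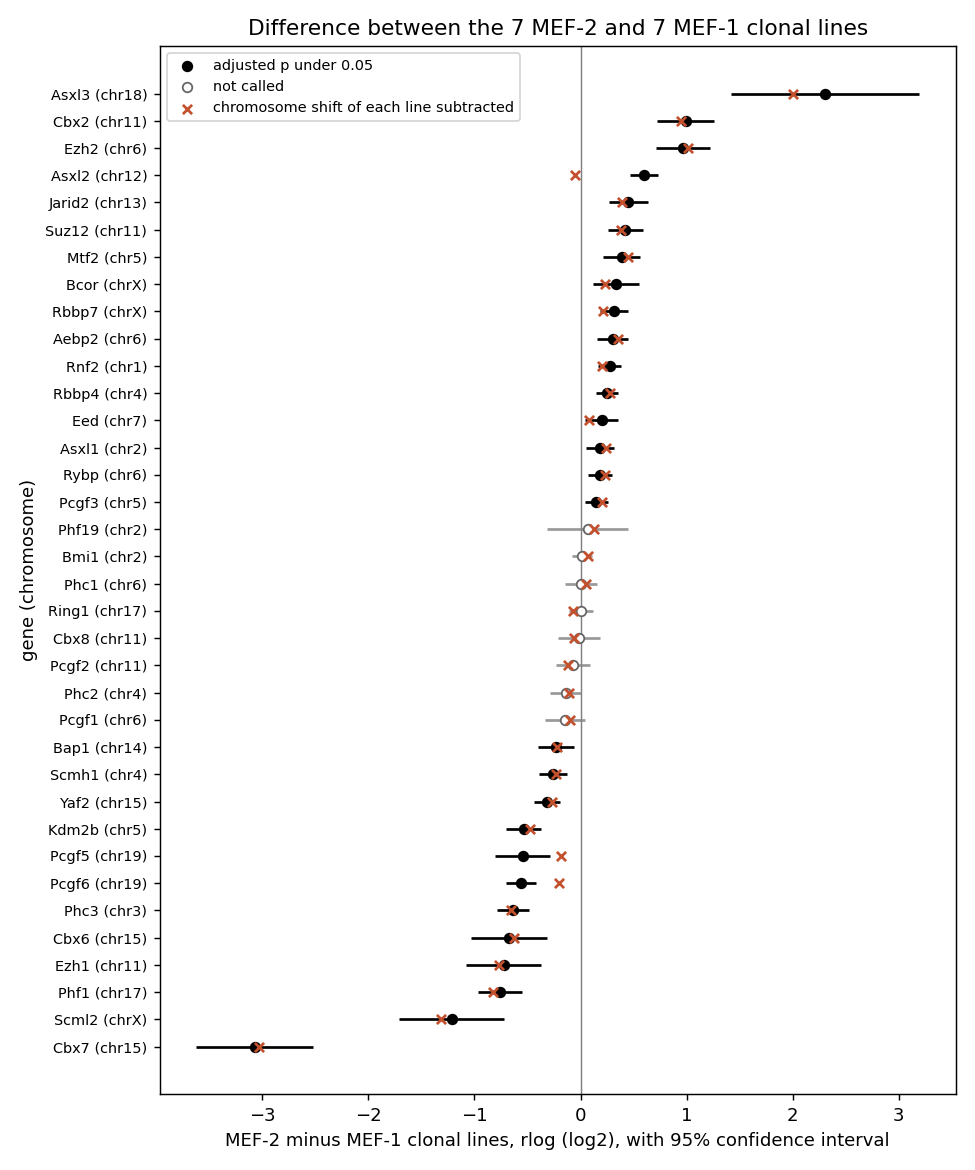
Difference between the 7 MEF-2 and the 7 MEF-1 clonal lines for each of 36 Polycomb genes (log2, circles, with 95% confidence intervals), filled where the adjusted p was under 0.05. Crosses give the difference after the median shift of the gene's chromosome was subtracted in each line, which brings Asxl2 to -0.05 and Pcgf5 and Pcgf6 to -0.18 and -0.20 and leaves Cbx7 at -3.03.

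All 4 genes of PR-DUB were called, beside 56.1% of all genes fitted. With the chromosome shift subtracted 3 of them were called, beside 56.8%. Asxl3 had the largest difference towards MEF-2 of the 36 genes, from 6.58 to 9.42 in MEF-1 clonal lines (median 8.73) to 10.01 to 10.87 in MEF-2 (median 10.68). The sets did not overlap, and the difference was 2.31 ± 0.42, or 4.95-fold (adjusted p = 0.000279, limma). In MEF-1 the lines were spread wide, with an SD of 1.18 that exceeded that of 99.6% of the 500 genes nearest in average. Asxl3 lies on chromosome 18. MEF-1 lines 1, 4 and 5, in which that chromosome was low, held 7.27, 6.58 and 7.52, and the other 4 lines between 8.73 and 9.42. The means of these 2 groups of lines differed by 2.09 for Asxl3. The shift of chromosome 18 was -0.50 to -0.47 in the first group and 0.07 to 0.15 in the other. The part of the chromosome in the Asxl3 values was not tested. With the chromosome shift subtracted the difference between the sets was 2.00.

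Asxl2 was between 11.53 and 11.80 in MEF-1 (median 11.72) and between 12.15 and 12.46 in MEF-2 (median 12.29), higher by 0.60 ± 0.06 (adjusted p = 1.36e-06, limma). This gene is on chromosome 12, and the difference was -0.05 (adjusted p = 0.469, limma) once the shift of that chromosome was subtracted. Asxl1, the most abundant of the 3 per kilobase, was higher by 0.18 ± 0.06. Bap1, the deubiquitinase itself, was lower (-0.23 ± 0.08, adjusted p = 0.0246, limma), which missed the threshold without MEF-1 line 5 (-0.19, adjusted p = 0.0508) or MEF-2 line 3 (-0.19, adjusted p = 0.0502).

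**Figure D4:**
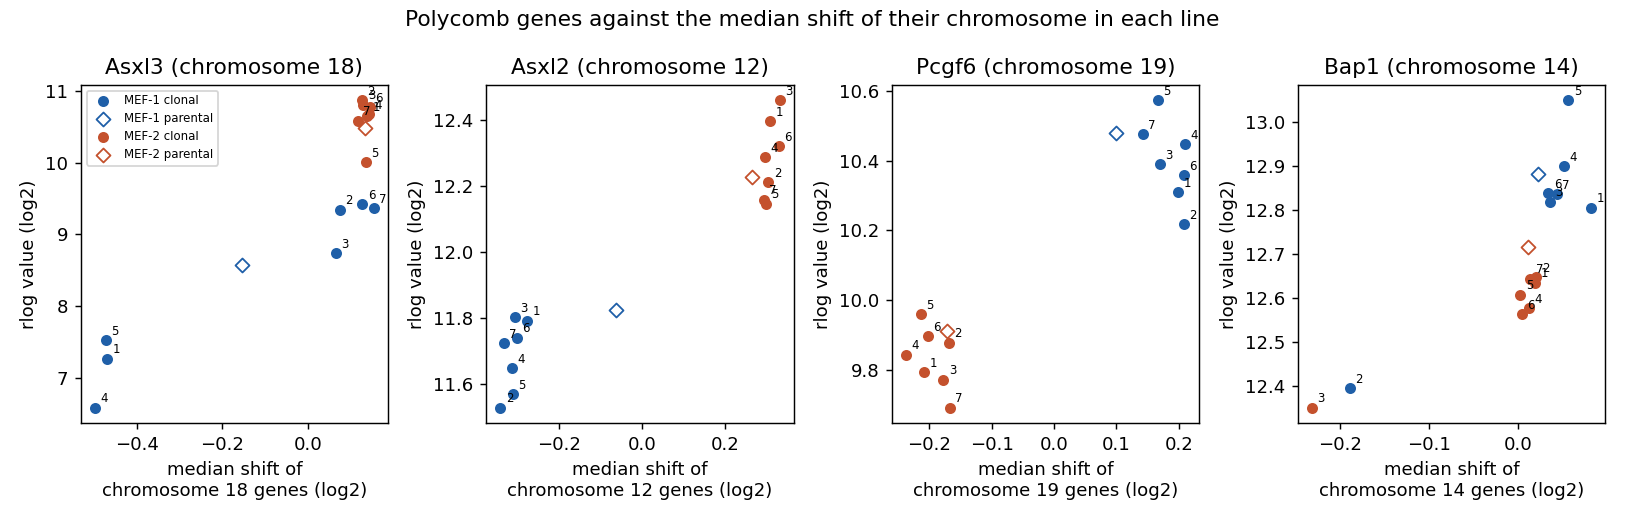
Rlog value (log2) of Asxl3, Asxl2, Pcgf6 and Bap1 in each line against the median shift of the genes on the same chromosome (log2), with numbered dots for clonal lines and diamonds for parental lines. Asxl3 is lowest in the 3 MEF-1 lines with chromosome 18 at -0.50 to -0.47, and Bap1 is lowest in MEF-1 line 2 (12.39) and MEF-2 line 3 (12.35), where chromosome 14 stands at -0.19 and -0.23.

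The proliferation mean moved with several of these genes. In MEF-1 clonal lines, Ezh2 was lowest in lines 1, 2 and 3 (10.89, 11.03 and 11.16), where the mean was -0.78, -0.75 and -0.56. It was highest in line 5 (11.71), where the mean was 0.34. Ezh1 was highest in lines 1, 2 and 3 (12.19, 11.93 and 11.75), but in line 5 (11.56) it was above lines 6 and 7 (11.08 and 11.40), whose means were lower, at -0.40 and -0.29. With this mean as a covariate, a model chosen after the data had been seen, 16 of the 36 genes were called, beside 32.0% of all genes. Within PRC2, 5 of 11 genes were called, with Ezh2, Jarid2 and Mtf2 higher and Phf1 and Phf19 lower in MEF-2. Ezh2 stayed called at 0.45 (adjusted p = 0.00372, limma), as did Cbx7 at -2.44 (adjusted p = 0.00033), Cbx2 at 0.91 (adjusted p = 0.00474), Phf1 at -0.37 (adjusted p = 0.0146) and Asxl3 at 2.89 (adjusted p = 0.00546). Ezh1 (-0.19, adjusted p = 0.526, limma), Suz12 (0.14, adjusted p = 0.252), Cbx6 (-0.20, adjusted p = 0.552) and Scml2 (-0.47, adjusted p = 0.262) did not. Phf19 became called as lower in MEF-2 (-0.62, adjusted p = 0.0263, limma).

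The covariate and the sets are almost inseparable in these lines, and only MEF-1 line 5 reached the range of MEF-2 clonal lines. Whether division rate has a part in these differences was not tested.

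**Figure D5:**
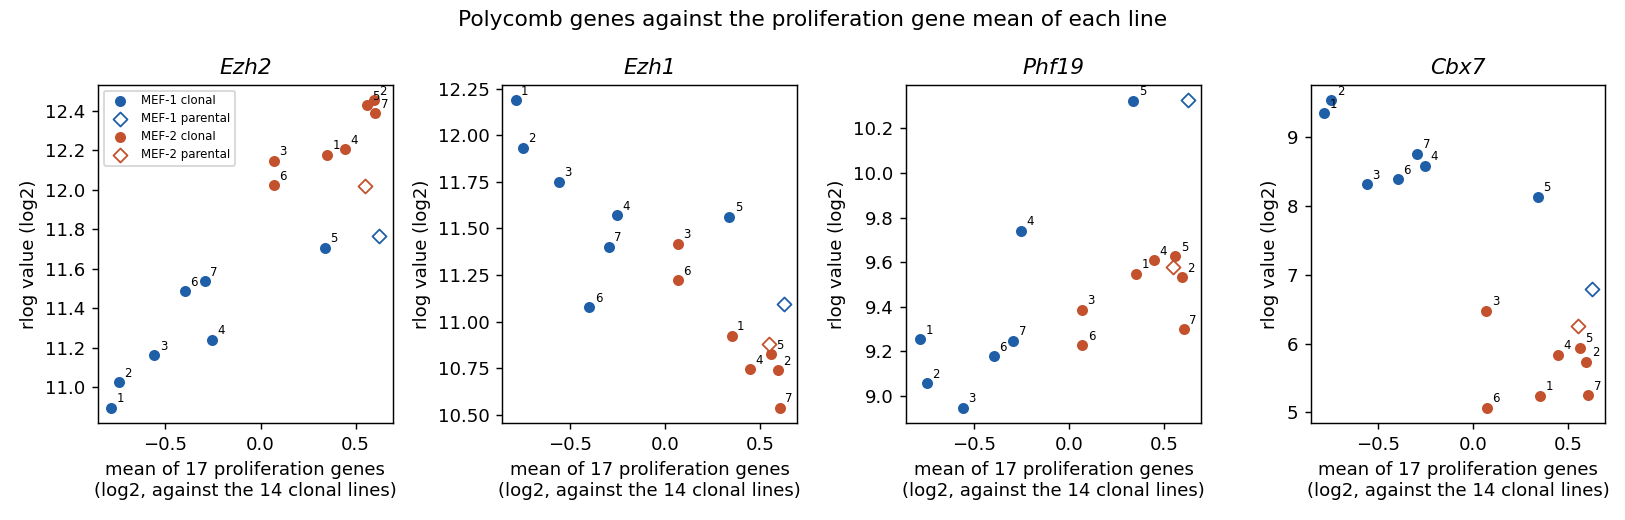
Rlog values (log2) of Ezh2, Ezh1, Phf19 and Cbx7 in each line against the mean of 17 proliferation genes (log2, relative to the 14 clonal lines), with numbered dots for clonal lines and diamonds for parental lines. The MEF-1 parental line has a mean of 0.62 and an Ezh2 value of 11.77, and MEF-1 line 5 has a mean of 0.34 with Cbx7 at 8.13.

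The parental lines have 1 library each, so their values are described without a test. The MEF-1 parental line lay outside the range of its 7 clonal lines for 17 of 36 genes (6 above and 11 below), beside 40.9% of all genes (20.2% above and 20.8% below). The MEF-2 parental line did so for 12 (3 above and 9 below), beside 34.2% (15.8% above and 18.5% below). Cbx7 showed the largest departure in MEF-1, at 6.79 in the parental line and at least 8.13 in every clonal line derived from it. In MEF-2 it was 6.26 in the parental line, inside the clonal range. Of the 15 genes whose clonal lines did not overlap, the MEF-1 parental line had 8 in its own clonal range, 4 between the sets (Ezh2, Cbx7, Phc3 and Asxl2), 2 in the MEF-2 range (Suz12 and Phf1) and 1, Scml2, beyond its own set. For the MEF-2 parental line, 10 were in its own range and 3 (Rnf2, Scml2 and Kdm2b) in that of MEF-1.

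The spread among clonal lines was larger in MEF-1 than in MEF-2 for 27 of 36 genes, beside 63.4% of all genes. It was so for 11 of 11 genes of PRC2 and for 13 of 21 of PRC1. The median SD of the 36 genes was 0.16 in MEF-1 and 0.12 in MEF-2, below the 0.20 and 0.16 of all genes fitted. The 5 most variable genes were Asxl3, Scml2, Cbx7, Phf19 and Ezh1 in MEF-1 and Cbx7, Cbx6, Ezh1, Asxl3 and Pcgf5 in MEF-2. Ring1 was the steadiest in MEF-1, with an SD of 0.04.

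Genes that work with or against Polycomb proteins were read in the same fit. Of 31 further Polycomb-associated genes, 30 were fitted and 18 called, 8 higher and 10 lower in MEF-2, beside 56.1% of all genes, a share near that background. Auts2 and Sfmbt1 alone reached 1.5-fold, beside 25.5% of all genes. Auts2, a component of one variant PRC1, was between 11.27 and 12.70 in MEF-1 clonal lines (median 12.39) and between 6.53 and 7.84 in MEF-2 (median 7.06). The sets were far apart, with a difference of -4.99 ± 0.26 (adjusted p = 1.23e-09, limma), and both parental lines lay between them, MEF-1 at 10.85 and MEF-2 at 9.61. Sfmbt1, which binds methylated histones, was lower (-1.31 ± 0.12). Max and E2f6, which belong to the variant PRC1 with Pcgf6, were higher by 0.53 ± 0.04 and 0.48 ± 0.14. Both lie on chromosome 12, and with its shift subtracted Max was lower in MEF-2 (-0.11, adjusted p = 0.0341, limma) and E2f6 was not called (-0.16, adjusted p = 0.359).

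Of 11 genes that oppose Polycomb silencing, 5 were called, 2 higher and 3 lower, beside 56.1% of all genes, and none reached 1.5-fold, beside 25.5%. Kdm6a, an X-linked H3K27 demethylase that escapes X inactivation, was higher in MEF-2, the female set, by 0.38 ± 0.05. With the shift of the X chromosome subtracted it was higher by 0.28 (adjusted p = 0.000136, limma). Sex cannot be told apart from embryo and karyotype here, and its part in the Kdm6a difference was not tested. The H3K4 methyltransferase cofactor Men1 was lower (-0.28 ± 0.05), the H3K36 methyltransferase Nsd1 lower (-0.22 ± 0.04), and the H3K4 methyltransferase Setd1a higher by 0.15 ± 0.04. With the chromosome shift subtracted, Men1, on chromosome 19, was at 0.08 (adjusted p = 0.169, limma) and Setd1a at 0.03 (adjusted p = 0.448), so that neither was called.

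Of 24 genes known as Polycomb targets, 15 had an average above 0 and were fitted. Of these 15, 11 were called, 3 higher and 8 lower in MEF-2, all by at least 1.5-fold, beside 25.5% of all genes. Those called lower include Pax6, Pax2, Sox2 and Nkx2-5, whose values were weak, with means of 0.90 to 3.55 over the clonal lines of either set. With the chromosome shift subtracted 9 of the 15 were called, beside 56.8% of all genes. With the proliferation mean as a covariate 8 were called, beside 32.0%. Cdkn2a was between 13.14 and 13.70 in MEF-1 clonal lines (median 13.29) and between 10.62 and 11.42 in MEF-2 (median 11.15), lower (-2.21 ± 0.13, adjusted p = 2.84e-09, limma). Its neighbour Cdkn2b was lower (-1.95 ± 0.13). Cdkn2a, Cdkn2b and Cbx7 were all higher in MEF-1 clonal lines. In the MEF-1 parental line, all 3 lay below every MEF-1 clonal line, with Cbx7 at 6.79, Cdkn2a at 12.92 and Cdkn2b at 10.73. Gata6, an endoderm regulator, was lower (-2.54 ± 0.52) with MEF-2 line 6 at 10.16 and the other MEF-2 lines at 5.81 to 7.96. Sox2, a stem cell regulator, was lower (-2.01 ± 0.67), and 1 MEF-1 line, line 7 at 7.46, stood far above the other 6 at 1.45 to 3.50.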

How the data were processed

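Total RNA libraries of 16 lines were trimmed by the authors with Trim Galore 0.6.0, quantified with Salmon 1.5.2 (mm10, Ensembl release 102) and transformed with DESeq2 1.24.0. The deposited values are log2 values (rlog), 1 per gene and line. How transcripts were summed to genes is not given in the sources used here. Genes were matched to GENCODE mouse release 21 (54200 of 54453), and 15285 protein-coding genes with an average above 0 were fitted with limma 3.58.1 (trended variance, R 4.3.3), tested on simulated data. The tests assumed log2 values. The chromosome shift is the median of a chromosome's genes in a line, relative to the 14 clonal lines. Shifts given as values are centred on the autosomal median of the line. The subtraction used the shift before that centring, and so also removed the autosomal median of each line (-0.04 to 0.05).

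Genes given in full are the PRC2 core, those called with at least 1.5-fold, the 5 with the largest SD in each set, and genes with an outlying line, and of other lists the 4 called genes with the largest difference. E2f1, Npcd and Apobec3 were named after their values were seen. The 36 genes and all lists were chosen with earlier results of these data known. Same-numbered clonal lines are different cells of different embryos, so the numbers pair nothing. Python 3.11.15 was used for counts and figures. DNA methylation data were not analysed here.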

Additional observations from a re-analysis of the deposited data

Results flagged for a closer look

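Ezh2 in the clonal lines lay on opposite sides of the parental line in the sets. The mean of clonal minus parental was -0.47 in MEF-1, where all 7 clonal lines were below the parental value, and 0.24 in MEF-2, where all 7 were above it. MEF-2 line 6 was above its parental line by less than 0.01, at 12.02 in both. With 1 library per parental line, this contrast of MEF-1 and MEF-2 was not tested.

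In 6 of the 72 sets of 7 clonal lines examined, 1 line stood apart from the others by Dixon's criterion, where chance gives 1 in 20, or 3.6. Pcgf1 was 8.54 in MEF-1 line 5 (nearest line 8.73) and Pcgf2 was 12.08 in MEF-1 line 1 (nearest 11.81). Bmi1 was 12.45 in MEF-2 line 3 (nearest 12.62), a line in which chromosome 2, which carries Bmi1, stood at -0.25. Asxl3 was 10.01 in MEF-2 line 5 (nearest 10.59), with chromosome 18 of that line at 0.14. Bap1 was 12.39 in MEF-1 line 2 (nearest 12.81) and 12.35 in MEF-2 line 3 (nearest 12.56), the lines in which chromosome 14 stood at -0.19 and -0.23. The part of these chromosome shifts in the gene values was not tested.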

How the results depend on the processing

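The 28 calls became 24 with the chromosome shift subtracted, 27 with the parental lines added or with an average above 5, 29 with lines centred on the autosomal median, and 27 to 28 with 1 clonal line left out. They became 16 with the proliferation mean as a covariate and 10 when calls also needed 1.5-fold. With the replicate number as a block there were 28 calls. The correlation of same-numbered lines ran from -0.13 to 0.20 over 7 pairs, and 1 of 7 MEF-1 lines correlated best with its own number. The 10 calls of at least 1.5-fold were 9 to 11 with a line left out. The 27 genes with a larger SD in MEF-1 became 23 to 29. Signs turned for uncalled differences near 0: with parental lines added, Phf19 (-0.033) and Cbx8 (0.0064); with centring, Bmi1 (-0.011), Ring1 (-0.024) and Phc1 (-0.019); with the chromosome shift subtracted, Ring1 (-0.067); with the covariate, Cbx8 (0.26), Pcgf1 (0.057), Pcgf2 (0.10) and Phc1 (-0.031); and with a line left out, Phf19 (-0.0057 to 0.22), Cbx8 (-0.082 to 0.027), Bmi1 (-0.0034 to 0.042), Ring1 (-0.028 to 0.026) and Phc1 (-0.043 to 0.034). Called differences turned for Asxl2 (-0.050) with the chromosome shift subtracted and Eed (-0.031) with the covariate, under which Phf19 was -0.62. The cause was not tested. Depth is unknown and shrinkage understates differences of weak genes such as Scml2.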
